A study of Homo sapiens with 2 samples.

Results

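Autosomal chromosome arms held 198 of the 3461 peaks that were called from chromatin immunoprecipitated with an antibody against AIM2, 100 of 1936 in unirradiated cells and 98 of 1525 in irradiated cells. An arm peak had its summit on an autosome more than 12 Mb from the centromere midpoint. Stretches on chromosomes 1, 9, 4 and 10 that border large heterochromatic or end-of-chromosome repeat blocks were left out by the same positional rule. No measured value entered the rule, but it was set with earlier results of these data known. The cells were HaCaT, an immortalised human keratinocyte line with a rearranged karyotype, grown in serum-containing medium. The control cells were not irradiated (0 Gy), and the others received an X-ray dose of 20 Gy at a rate of 1.15 Gy per minute, and the irradiated sample's title adds 4 h without stating from when the time runs. Each group was 1 library, so every comparison is between libraries and not between conditions, and none has a replicate check. No input library was used here, and the copy number of these regions in the line was not measured.

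AIM2 is a cytosolic sensor that binds double-stranded DNA through its HIN domain without a known preference for a base sequence, and then assembles an inflammasome with the adaptor ASC and caspase-1. Chromosome arms hold most genes and mostly single-copy sequence, whereas centromeric regions are built of satellite repeats. The arms also hold tandem gene arrays, processed pseudogenes and the repeat-rich stretches beside the telomeres, where sequence reads can match several places.

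The sequences shown are those of annotated elements that arm peaks covered, from RefSeq on GRCh38.p14. The microRNA gene MIR8078 lay wholly under one of the strongest arm peaks of both libraries, chr18:112140-112464 with a pileup of 157 fragments at 0 Gy and chr18:112147-112439 with 131 at 20 Gy. Pileup is the number of fragments that cover the summit. The hairpin, at chr18:112256-112339 on the minus strand, is printed with its mature part in capitals, and the mature RNA, at chr18:112266-112288, with its seed (bases 2 to 8) in capitals. The hairpin had a GC content of 70.2% over 84 bases.
MIR8078 hairpin: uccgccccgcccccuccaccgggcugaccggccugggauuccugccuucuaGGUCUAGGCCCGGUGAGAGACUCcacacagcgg
hsa-miR-8078: gGUCUAGGcccggugagagacuc

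Promoter windows, taken as 250 bases before to 50 bases after an annotated start, were given for the chromosomes of 32 of the 42 shared arm peaks at 0 Gy and 34 of the 44 at 20 Gy, and none of these peaks touched one. The windows that faint unshared peaks touched are printed with the bases under the peak in capitals. They belong to FAM138A, a long non-coding RNA of a multicopy family at chromosome ends (chr1:36032-36331, minus strand, 0 Gy pileup 7, all 300 bases covered), to ACTRT3, an actin-related protein of the sperm head (chr3:169769512-169769811, minus strand, 0 Gy pileup 9, 30 bases covered), and to CCT2, a subunit of the cytosolic chaperonin (chr12:69585639-69585938, plus strand, 20 Gy pileup 5, 171 bases covered).
FAM138A promoter: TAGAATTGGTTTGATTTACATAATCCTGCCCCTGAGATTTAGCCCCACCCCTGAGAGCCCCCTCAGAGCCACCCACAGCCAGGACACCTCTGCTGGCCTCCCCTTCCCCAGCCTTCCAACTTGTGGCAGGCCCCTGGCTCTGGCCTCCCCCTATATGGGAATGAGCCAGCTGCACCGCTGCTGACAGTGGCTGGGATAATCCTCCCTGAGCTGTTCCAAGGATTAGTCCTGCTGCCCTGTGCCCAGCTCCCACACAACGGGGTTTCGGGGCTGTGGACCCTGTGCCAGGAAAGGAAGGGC
ACTRT3 promoter: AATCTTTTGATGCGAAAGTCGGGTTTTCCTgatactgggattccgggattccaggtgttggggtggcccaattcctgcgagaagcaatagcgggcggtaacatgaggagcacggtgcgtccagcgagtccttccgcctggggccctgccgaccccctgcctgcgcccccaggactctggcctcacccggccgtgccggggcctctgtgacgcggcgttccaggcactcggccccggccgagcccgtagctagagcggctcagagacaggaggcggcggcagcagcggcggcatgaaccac
CCT2 promoter: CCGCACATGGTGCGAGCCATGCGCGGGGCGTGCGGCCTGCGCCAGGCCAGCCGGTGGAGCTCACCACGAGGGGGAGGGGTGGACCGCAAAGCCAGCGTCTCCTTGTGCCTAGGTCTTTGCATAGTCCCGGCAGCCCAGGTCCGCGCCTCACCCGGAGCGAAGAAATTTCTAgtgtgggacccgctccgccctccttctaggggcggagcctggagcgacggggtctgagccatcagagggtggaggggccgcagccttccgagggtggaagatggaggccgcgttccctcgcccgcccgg

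The GC content was 60.3% in the FAM138A window, 66.7% in that of ACTRT3 and 70.0% in that of CCT2, against a median of 58.7% over 35116 promoter windows. The windows held 3, 27 and 28 CpG dinucleotides, against a median of 14. Both strands were searched for TTAGGG (the telomere repeat unit), GGAAT (the unit of human satellites II and III) and CACGTG (the E-box bound by MYC and its partners). GGAAT was found in the FAM138A and ACTRT3 windows and in 36.4% of all promoter windows, and the CCT2 window held none of the motifs. TTAGGG was found in 9.05% of all windows and CACGTG in 7.26%.

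Arm peaks were rare for the length of sequence they came from. The arms made up 80.7% of the annotated autosomal span, 2320 Mb, and held 5.18% of the nuclear peaks at 0 Gy (95% Clopper-Pearson interval 4.24 to 6.27%) and 6.46% at 20 Gy (5.27 to 7.81%). That is 0.0431 and 0.0422 arm peaks per Mb, beside 3.23 and 2.51 peaks per Mb in the rest of the autosomes. That rest includes the stretches left out by the rule. The Poisson intervals of the counts, 81.4 to 122 at 0 Gy and 79.6 to 119 at 20 Gy, overlapped almost entirely. The 0 Gy library had 8786091 fragments after the peak caller removed duplicates and the 20 Gy library 6423989, which gave 11.4 and 15.3 arm peaks per 1000000 kept fragments. The minimum peak length was 177 bp at 0 Gy and 170 bp at 20 Gy, and 17 of the 20 Gy arm peaks were shorter than 177 bp. Intervals here cover counting error only, since amplified fragments are not independent molecules.

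Arm peaks were also lower than other nuclear peaks. Their median pileup was 12 fragments at 0 Gy and 9 at 20 Gy, against 15 and 13 outside the arms. The median fold enrichment, the authors' ratio of pileup to the local background of the same library, was 5.35 and 5.40 on the arms and 6.84 and 6.87 elsewhere. The median −log10 q-value was 4.90 and 3.99 on the arms, against 8.05 and 7.54. Arm pileups spanned 6 to 283 fragments at 0 Gy and 5 to 180 at 20 Gy, so a few strong peaks stood over many faint ones. The nearest shared peaks beyond the 12 Mb limit lay 15.2 Mb (chromosome 3, pileup 283 and 180) and 15.3 Mb (chromosome 2, 90 and 75) from the centromere midpoint. The nearest within it lay at 9.49 Mb (chromosome 16, 430 and 345) and 5.73 Mb (chromosome 22, 12 and 16).

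A minority of the arm peaks were found in both libraries. Of the 0 Gy arm peaks, 42 of 100 overlapped a 20 Gy peak by at least 1 bp (42.0%, 32.2 to 52.3%), against 54.3% of all nuclear 0 Gy peaks. Of the 20 Gy arm peaks, 44 of 98 overlapped a 0 Gy peak (44.9%, 34.8 to 55.3%), against 69.2% of all nuclear 20 Gy peaks. Outside the arms the shares were 54.9% (52.6 to 57.2%) and 70.8% (68.4 to 73.2%), and neither interval met that of the arm peaks. At 20 Gy 2 more arm peaks were shared because single 0 Gy peaks in DOCK1 and ROCK1P1 each overlapped a pair of 20 Gy peaks.

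Peak strength differed between the arms and the rest, and sharing rose with strength in both. Below a −log10 q of 5 lay 50 of 100 arm peaks at 0 Gy and 61 of 98 at 20 Gy, against 502 of 1829 and 454 of 1420 peaks elsewhere. In the class below 3, 3 of 28 arm peaks at 0 Gy (10.7%, 2.27 to 28.2%) and 3 of 33 at 20 Gy (9.09%, 1.92 to 24.3%) were shared, beside 18.3% and 25.5% (18.8 to 33.2%) outside the arms. From 5 to 10 the arm shares were 48.1% and 75.0%, beside 41.2% and 73.2%. At 20 or more, 11 of 12 arm peaks at 0 Gy (91.7%, 61.5 to 99.8%) and 10 of 11 at 20 Gy (90.9%, 58.7 to 99.8%) were shared, beside 98.2% in each library elsewhere. In each of the 5 strength classes the intervals of arm and other peaks overlapped. Over all peaks below 5, 14 of 61 arm peaks at 20 Gy were shared (13.2 to 35.5%), a lower share than the 40.1% (35.5 to 44.8%) elsewhere, with intervals that barely missed each other. At 0 Gy the counts below 5 were 9 of 50 on the arms (8.58 to 31.4%) and 112 of 502 elsewhere (18.7 to 26.2%). A peak missing from a list may have fallen just under the caller's limit, and the lists hold no value for regions that were not called.

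**Figure D1:**
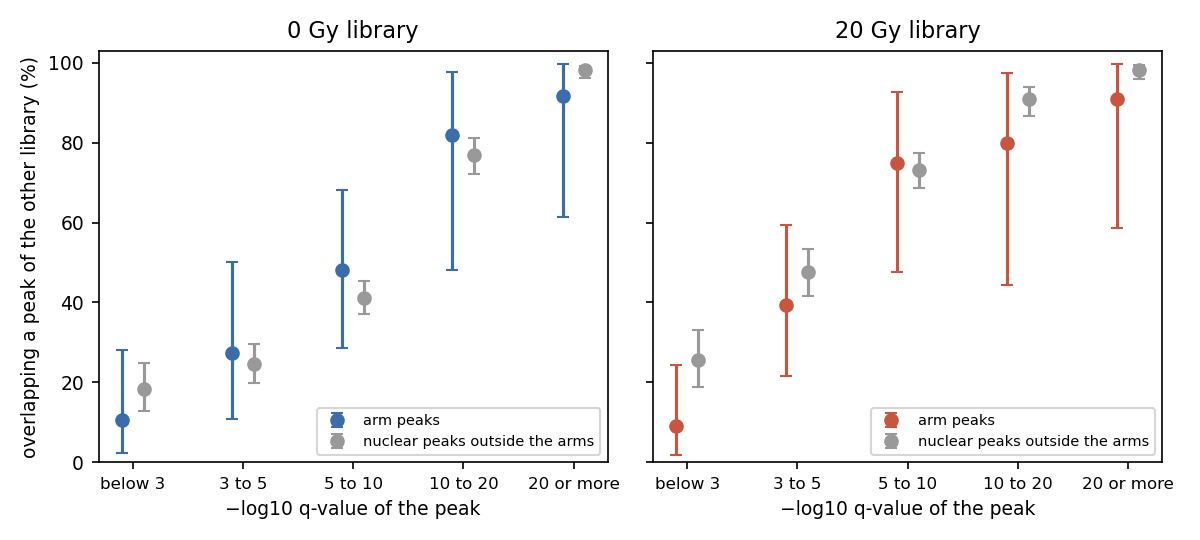
Percent of peaks (y axis) that overlapped a peak of the other library, by class of −log10 q-value (x axis), for arm peaks (coloured) and for nuclear peaks outside the arms (grey) of each library, with 95% Clopper-Pearson intervals. Arm peaks rise from 10.7% and 9.09% shared in the faintest class to 91.7% and 90.9% in the strongest, along with the other peaks.

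Shared arm peaks were taller and longer than unshared ones. The median pileup was 21.5 for shared and 9 for unshared peaks at 0 Gy, and 19.5 and 7 at 20 Gy. The median length was 359.5 bp for shared and 216 bp for unshared peaks at 0 Gy, and 345.5 and 203 bp at 20 Gy.

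For 42 one-to-one pairs of shared arm peaks, pileups were compared per 1000000 kept fragments. The median ratio of 20 Gy to 0 Gy was 1.13 (quartiles 1.03 and 1.35), beside 1.06 over all 1046 nuclear pairs and 1.06 over the 1004 pairs outside the arms. Unscaled pileup was lower at 20 Gy in 31 pairs, higher in 9 and equal in 2, and the kept depth at 20 Gy was 0.731 of that at 0 Gy. A ratio of at least 2 was reached by 2 of the 42 pairs, against 1.34% of all nuclear pairs, and a ratio of 0.5 or less by 1, against 0.478%. Most arm peaks that recurred had depth-scaled pileups within 2-fold of each other. Pairs were limited to peaks called in both libraries, so a faint peak that missed the caller's limit in either could not enter. Intervals of the fainter pairs reached beyond 2-fold.

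**Figure D2:**
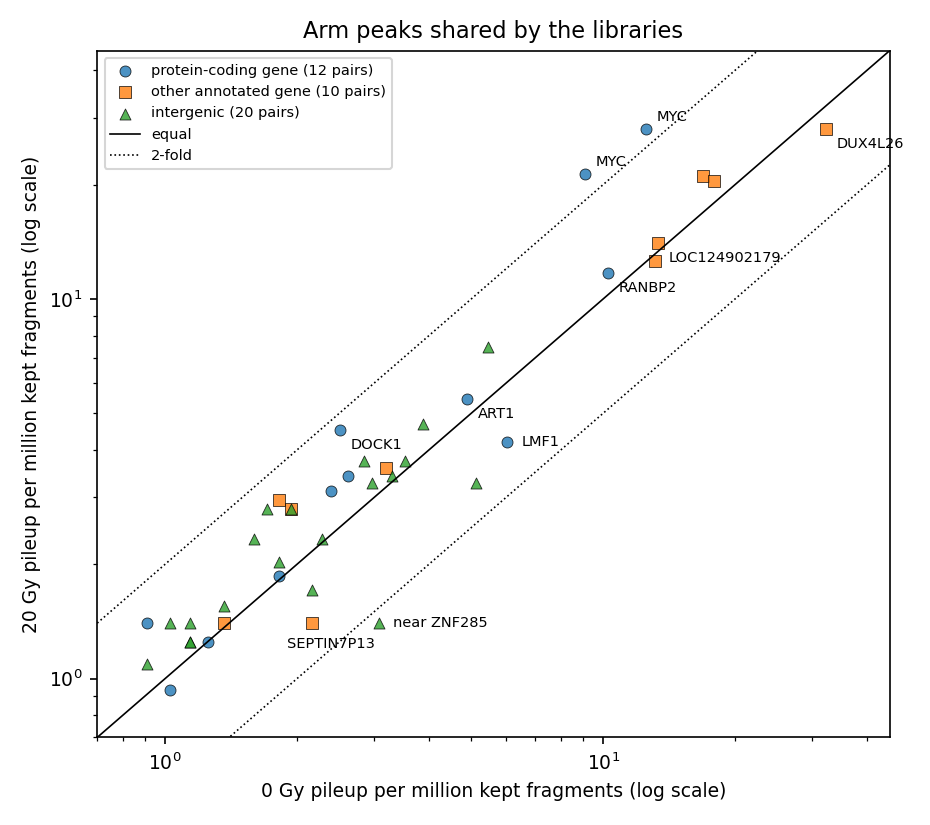
Pileup per 1000000 kept fragments of 42 shared arm peaks at 0 Gy (x axis) and 20 Gy (y axis), both on log scales, with a solid line at equality and dotted lines at 2-fold. The MYC pair lies above the upper dotted line at ratios of 2.34 and 2.24, the peak near ZNF285 lies below the lower one at 0.456, and the other pairs lie between.

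Both pairs above 2-fold were in MYC, the transcription factor gene on chromosome 8 that drives growth programmes. The peak at chr8:127738244-127738992 had 110 fragments at 0 Gy and 180 at 20 Gy, a depth-scaled ratio of 2.24 (1.76 to 2.86). The peak at chr8:127740440-127740958 had 80 and 137, a ratio of 2.34 (1.76 to 3.13). With fold enrichment in place of pileup the ratios were 1.15 and 1.19. The local background at the second peak, not scaled for depth, was 11.9 fragments at 0 Gy and 17.4 at 20 Gy. Kept depth at 20 Gy was 0.731 of that at 0 Gy. The windows behind the background include the peaks themselves.

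The only other pair whose interval lay above 1 was in DOCK1, an activator of the GTPase Rac. Its pileup was 22 at 0 Gy and 29 at 20 Gy, a ratio of 1.80 (1.00 to 3.29), and the 20 Gy list held an additional peak of 15 fragments over the same 0 Gy peak. The pair below 2-fold lay 9851 bp from ZNF285, a zinc finger gene, at chr19:44411352-44411630, with 27 fragments at 0 Gy and 9 at 20 Gy (0.456, 0.189 to 0.999). Among the remaining pairs with at least 15 fragments in either library, the highest ratio was that of a peak 25005 bp from PSMD14-DT on chromosome 2 (15 and 18 fragments, 1.64). The lowest were those of an intergenic peak near REXO1L6P (45 and 21, 0.638), SEPTIN7P13, a septin pseudogene (19 and 9, 0.648), and LMF1 (53 and 27, 0.697), and each of their intervals held 1.

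The strongest shared arm peak lay on DUX4L26, a pseudogene of the DUX4 family of double homeobox genes, at chr3:75668925-75669629. It had 283 fragments at 0 Gy and 180 at 20 Gy, a depth-scaled ratio of 0.870 (0.718 to 1.05), with fold enrichments of 27.4 and 25.9. The long non-coding RNA gene LOC124902179, at chr9:70038185-70038471, held 117 and 90 fragments with fold enrichments of 21.6 and 23.2. These were the tallest arm peaks relative to their surroundings in both libraries.

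A 4.06 kb stretch near the end of 18p held further strong peaks, all shared. It covers LOC112268408, a long non-coding RNA gene, and ROCK1P1, a transcribed pseudogene, and it holds the MIR8078 hairpin printed above. At 0 Gy its 3 peaks had 148, 115 and 157 fragments. At 20 Gy the middle one was called as a pair, and the 4 peaks had 135, 93, 81 and 131. Their fold enrichments were moderate, 6.30 to 8.78 and 5.43 to 9.02, beside a local background of 17.4 and 14.1 fragments (medians), against 1.22 and 0.701 over the arm peaks elsewhere. The windows behind the background include the peaks themselves, and coverage between the peaks was not measured.

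The largest group of arm peaks lay in the REXO1L array on the long arm of chromosome 8, a tandem array of pseudogenes related to the RNA exonuclease gene REXO1. Over 184 kb the unirradiated library had 12 peaks and the irradiated one 8, and 7 in either list were shared. The 0 Gy pileups were 17 to 48 (median 31.5) and the 20 Gy pileups 18 to 48 (median 22.5). Fold enrichments were low, 3.15 to 6.08 and 3.34 to 5.13, beside a median local background of 6.91 and 4.98 fragments that was 6.85 and 7.37 times that of other arm peaks. The highest of the 0 Gy-only peaks had 41, 37, 32 and 27 fragments, and the one 20 Gy-only peak had 18.

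**Figure D3:**
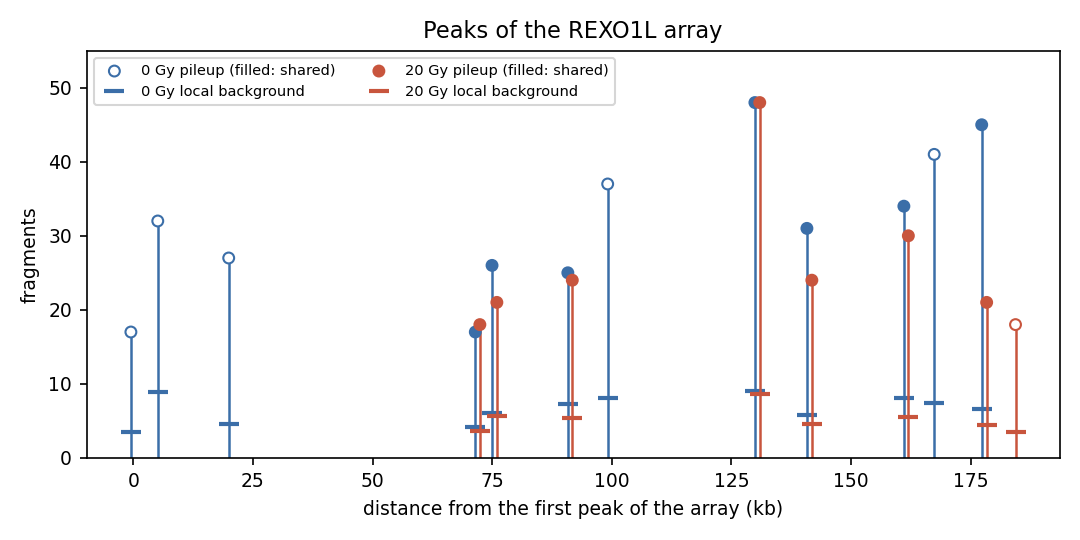
Pileup at the summit (points, y axis in fragments) and local background (dashes) of the REXO1L array peaks by distance in kb from the first peak (x axis), filled where shared. The 0 Gy pileups run from 17 to 48 and the 20 Gy pileups from 18 to 48, over backgrounds of 3.48 to 9.06 fragments.

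Smaller groups of at least 3 arm peaks with gaps of up to 100000 bp were found at the start of 5p (3 peaks at 0 Gy, 11 to 20 fragments, and 2 at 20 Gy, both with 15), at the end of 16q around FAM157C (3 and 1), and on 17q around CCDC200 (3 and 1). Groups of this kind held 24 of the 100 arm peaks at 0 Gy and 12 of the 98 at 20 Gy. Chromosome 8 had the highest density of arm peaks at 0 Gy, 0.149 per Mb, while at 20 Gy it had 0.107 per Mb and chromosome 21 had 0.132. Chromosome 6 had 1 arm peak at 0 Gy and 0 at 20 Gy, and chromosome 15 had 3 and 0, whereas chromosome 22 had 0 and 2 and chromosome 12 had 2 and 7.

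Arm peaks were crowded towards chromosome ends. Within 2 Mb of an end lay 26 of 100 at 0 Gy (26.0%, 17.7 to 35.7%) and 23 of 98 at 20 Gy (23.5%, 15.5 to 33.1%), whereas 3.66% of the arm span lies there. Within 1 Mb the shares were 24.0% and 20.4%, against 1.81% of the span, and within 5 Mb 30.0% and 28.6%, against 9.16%. Of the shared peaks 14 of 42 at 0 Gy and 15 of 44 at 20 Gy lay within 2 Mb, and of the unshared ones 12 of 58 and 8 of 54. The ends were taken as the start of each chromosome's sequence and the end of its last annotated gene. The arm span was measured between the same points, and gaps in the assembly were not removed from it. Neighbouring peaks, as on 5p and 18p, were counted singly, and the intervals do not allow for that.

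**Figure D4:**
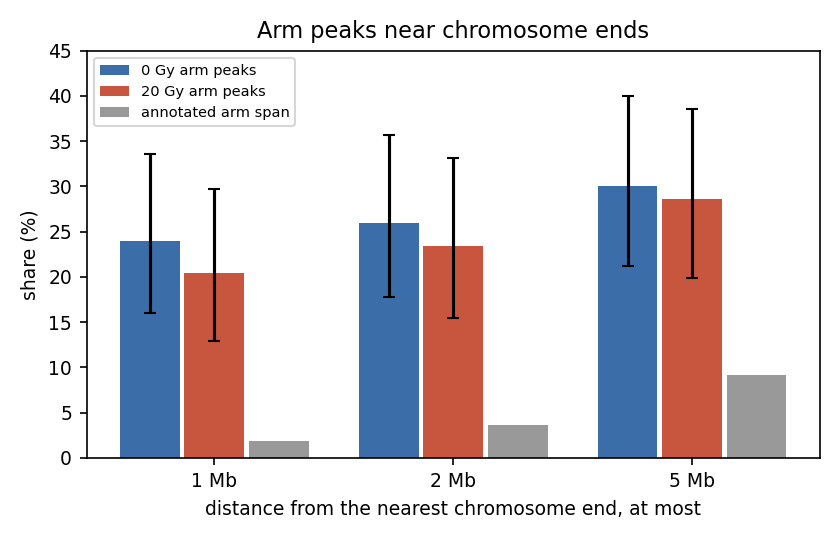
Percent of arm peaks (y axis) within 1, 2 and 5 Mb of a chromosome end at 0 Gy and 20 Gy, with 95% Clopper-Pearson intervals, beside the percent of the annotated arm span at the same distance (grey). Both libraries lie at 20.4 to 30.0%, above the 1.81 to 9.16% of the span.

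Several of these end peaks lay beside the first placed bases of a chromosome. On 5p, shared peaks had 14 and 15 fragments at one position and 20 and 15 at the other. On 1p (chr1:10032-10226, 12 fragments) and 10p (chr10:10148-10342, 10 fragments) peaks were in the 20 Gy list only, where equal rates would give 16.4 and 13.7 fragments at 0 Gy. On 16p, LMF1, a factor that matures lipases in the endoplasmic reticulum, held shared peaks of 53 and 27 fragments and of 23 and 22. A peak in LOC101929823 near the end of 17p had 16 and 19, AP2A2, a subunit of the clathrin adaptor AP-2, had 16 and 12, and SNPH, which anchors mitochondria in axons, had 11 and 8. The LMF1, AP2A2 and SNPH summits lay further in, 953 to 1302 kb from the end at 0 Gy. Reads from the first placed bases of a chromosome can match other chromosome ends. The placement of all the peaks of this paragraph was not tested.

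Summits were assigned to protein-coding genes, other annotated genes or intergenic sequence. At 0 Gy 34 of 100 lay in protein-coding genes (34.0%, 24.8 to 44.2%), 26 in other genes and 40 between genes. At 20 Gy the counts were 47 of 98 (48.0%, 37.8 to 58.3%), 19 and 32. The arm span itself is 45.6% protein-coding, 14.5% other genes and 39.9% intergenic. Of the shared peaks, which are largely the same places, 12 of 42 and 13 of 44 were in protein-coding genes. Unshared peaks were in protein-coding genes in 22 of 58 cases at 0 Gy (37.9%, 25.5 to 51.6%) and 34 of 54 at 20 Gy (63.0%, 48.7 to 75.7%), intervals that overlap. The 0 Gy interval held the 45.6% of the arm span and the 20 Gy interval lay above it, and a difference was not tested. A summit in a pseudogene within a protein-coding gene counted as protein-coding. The 20 Gy-only peak at chr1:10032-10226 counted as protein-coding through LOC124905564, a gene whose position there is uncertain. The shares were alike among fainter unshared peaks with a −log10 q below 3 (36.0% and 63.3%) and stronger ones (39.4% and 62.5%). Among unshared 20 Gy peaks of at least 177 bp the share was 66.7%. Pseudogenes held the summits of 14 arm peaks at 0 Gy and 15 at 20 Gy.

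**Figure D5:**
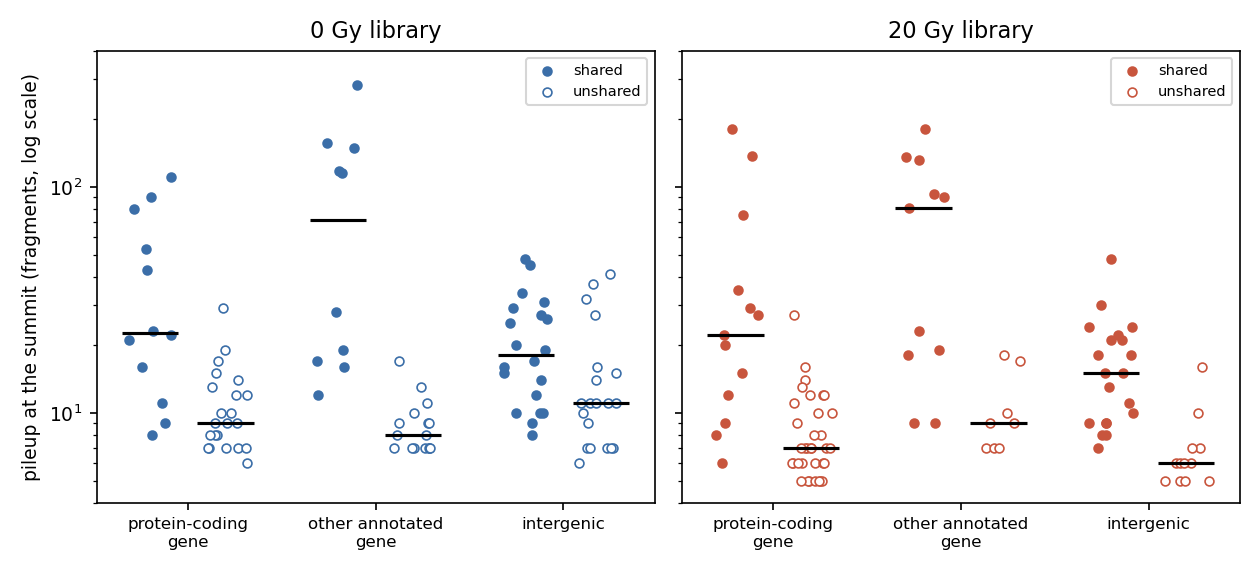
Pileup at the summit (y axis, fragments, log scale) of every arm peak by class of its summit (x axis), filled where shared and open where not, with bars at the medians. Peaks of more than 100 fragments lie in both gene classes, while intergenic peaks reach 48 in both libraries. Unshared peaks in protein-coding genes have at most 29 fragments at 0 Gy and 27 at 20 Gy.

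Few arm peaks lay at start sites, at shares whose intervals held that of the arm span. With chromosome 8 left out, since its promoters were not used here, 3 of 82 summits at 0 Gy (3.66%, 0.761 to 10.3%) and 2 of 85 at 20 Gy (2.35%, 0.286 to 8.24%) lay within 1000 bp of a start, where 2.07% of the arm span lies. Of the shared summits so checked, which leave out MYC, 0 of 32 and 0 of 34 lay there, and the intervals for those shares reach 10.9% and 10.3%. Within 5000 bp the shares were 12.2% and 14.1%, against 9.41% of the span.

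Of 16307 protein-coding genes on the arms, 38 (0.233%) had a 0 Gy summit within 1000 bp of their extent and 44 (0.270%) a 20 Gy summit. Both libraries had a summit there for 13 genes, and for 12 of them inside the gene in both. After MYC, the highest was a peak at chr2:109199330-109199848 with 90 and 75 fragments. It lay in SH3RF3, a ubiquitin ligase scaffold, and also in the extent that the gene table gives RANBP2, a nucleoporin. That extent is 1123 kb long and of doubtful accuracy, so the count of RANBP2 among the 13 genes may be an effect of the table. ART1, an enzyme that attaches ADP-ribose to arginine, had 43 and 35 fragments. PRKCA, protein kinase C alpha, had 21 and 20, and the 20 Gy list added a peak of 12 fragments 117 bp further on. Lower peaks recurred in MED13L, a subunit of the Mediator kinase module (9 and 6), and PRDM15, a zinc finger regulator (8 and 9). FANK1 had 12 fragments at 0 Gy and 8 at 20 Gy in peaks 119 bp apart that did not overlap. The other genes with a summit inside them in both were MYC, DOCK1, LMF1, AP2A2 and SNPH. LOC101929601 completes the 13. Its summits lay outside the gene, 506 bp away at 0 Gy and 715 bp at 20 Gy, in peaks of the REXO1L array.

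The strongest arm peak found only at 20 Gy, by pileup and by −log10 q (25.7), lay in AIM2 itself, the gene of the protein the antibody was directed against. It had 27 fragments at chr1:159065946-159066264 (Poisson interval 17.8 to 39.3) and a fold enrichment of 14.4, 10667 bp from the nearest start of the gene. A second AIM2 peak, chr1:159073261-159073499, had 14 fragments, 3359 bp from the start. Equal rates would give 36.9 and 19.1 fragments at 0 Gy, where no peak was called in the gene.

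EEF1A1P6, a processed copy of the elongation factor gene EEF1A1, had 17 fragments at 20 Gy (chr7:22511004-22511408). It also had an 8-fragment peak at 0 Gy that ended 100 bp away, so both libraries had a peak in this pseudogene. GAPDH, the glycolytic enzyme gene often used as a control, had 12 fragments at 20 Gy (chr12:6537701-6537968, −log10 q 7.37). Of 1804 annotated copies of abundant-transcript genes, a set chosen after values had been seen, 3 held a 0 Gy summit (0.166%) and 7 a 20 Gy summit (0.388%). Of protein-coding arm genes 0.233% and 0.270% had a summit within 1000 bp of their extent. The window differs and length was not allowed for, so these shares cannot be read against each other. EEF1A1P5 held a peak in both libraries, with 28 and 23 fragments. The copies seen at 20 Gy alone were EEF1A1P13, RPL14P1, RPL3P4, RPS26P25 and RPS2P5, with 7 to 10 fragments, and FTH1P10, with 9, was seen at 0 Gy alone. The RPS26P25 summit also lay in ANK2 and the RPS2P5 summit in TAOK3, both protein-coding genes.

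By −log10 q (27.3) the strongest peak found only at 0 Gy lay in ANKRD30BL, a member of the ankyrin repeat domain 30 family, at chr2:132255376-132255608. It had 29 fragments (19.4 to 41.6) and a fold enrichment of 14.5, and equal rates would give 21.2 at 20 Gy. Its summit also lay in the annotated pseudogenes LOC107985804 and LOC110467533. Next by −log10 q outside the REXO1L array were an intergenic peak on 6q (chr6:170146175-170146354, 15 fragments) and one 1233 bp from CCDC200 on 17q (16 fragments). Other 0 Gy-only peaks in genes included GMEB2, a regulator of glucocorticoid responses (14), NMRK1, a nicotinamide riboside kinase (12), ADIPOQ, which encodes adiponectin (10), HPSE, heparanase (9), and APOA1, the main protein of high-density lipoprotein (8). Faint 20 Gy-only peaks included ACTN2, a muscle actinin (10), PHRF1, a ubiquitin ligase (10), APP, the amyloid precursor protein gene (7), and PDGFC, a platelet-derived growth factor (5). The peak in ANK2, ankyrin B (7), is the one counted above for RPS26P25. A peak of 7 fragments lay where GAS6 overlaps its antisense gene GAS6-AS1, which the fragments cannot separate. The ADIPOQ and APOA1 summits likewise lay in ADIPOQ-AS1 and APOA1-AS. Of the unshared peaks, 3 of 58 and 4 of 54 lay within 1000 bp of a peak in the other list.

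Lists of genes linked to AIM2, irradiation or keratinocytes held 0 to 2 members with an arm peak each. Over all protein-coding genes of the arms the share with a summit within 1000 bp was 0.233% at 0 Gy and 0.270% at 20 Gy, and 1 member of 19 is 5.26%, so these counts are too small to be read against it. Among inflammasome and DNA-sensing genes 0 of 19 on the arms had a summit within 1000 bp at 0 Gy and 1 of 19, AIM2, at 20 Gy. Among DNA damage and repair genes the counts were 0 and 1 of 20, the latter being ATR, the kinase that responds to stalled replication (8 fragments). Common fragile site genes gave 0 and 1 of 19, DPYD, which degrades pyrimidines (5 fragments). The p53 targets (19), keratinocyte genes (20) and genes of other skin cells (17) gave 0 in both libraries. Housekeeping genes gave 1 of 18 at 0 Gy, the elongation factor gene EEF2 (10 fragments), and 2 of 18 at 20 Gy, ACTB, which encodes beta-actin (9), and GAPDH. MYC was the one immediate early gene of 19 with a peak, in both libraries. Of 906 members of multicopy families, 8 had a summit at 0 Gy (0.883%) and 6 at 20 Gy (0.662%). Members were matched by the start of their symbol and include pseudogenes, and several with a summit were neighbours in the REXO1L array. Their shares therefore cannot be read against those of protein-coding genes. Besides DUX4L26 and the REXO1L copies, the members with a summit were FAM90A22 (15 fragments), FAM90A24 (19), NBPF1 (17) and USP17L11 (13) at 0 Gy, and FAM90A23 (13) and TAF11L7 (16) at 20 Gy. Copies of these families are nearly identical, so fragments counted at one copy can come from another.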

How the data were processed

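The data were peak lists from AIM2 chromatin immunoprecipitation, 1 library per group, taken from each sample's treatment label. Per the submitters' processing notes the tools included MACS2 2.1.2, BWA 0.7.15-r1140 and Trimmomatic 0.36, with GRCh38.p13. Per the file headers, MACS2 called narrow peaks in each library separately, without a control, at a q-value limit of 0.05, keeping at most 1 fragment per position. The deposited signal is the pileup (coverage) at the summit. The deposited −log10 values are of the p-value and q-value against the library's own local background. Fold enrichment, as deposited, divides the pileup by that background after 1 is added to each (a ratio). Duplicate removal took 16.3% of 10497630 fragments at 0 Gy and 17.0% of 7740043 at 20 Gy, per the file headers. It can cap pileup in repeated sequence.

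The local background was recovered as (pileup + 1)/fold − 1. A Poisson tail with it matched the deposited −log10 p within 0.05 for 98.6% of 0 Gy and 98.4% of 20 Gy peaks. Overlap meant at least 1 bp. Pileup ratios are per 1000000 kept fragments with exact conditional intervals, and shares and counts carry exact 95% intervals. The scripts were tested on simulated data. Gene extents, starts and sequences came from RefSeq tables of GRCh38.p14. A genome and exons were not used here. Positions are 1-based. With 1 library per group no p-value between libraries was computed. The alternatives covered the q-value limit, peak length, distance limit, overlap, depth scaling, gene window and end distance.

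Peaks named were the 10 strongest shared, the 6 strongest unshared of each list, the 4 highest and 4 lowest ratios at a pileup of at least 15, genes hit in both lists, groups of 3 or more, and list members. Other names were chosen after their values were seen, as was the set of abundant-transcript copies. The members and lists were chosen with earlier results of these data known. Python 3.11.15, pandas 2.3.3, numpy 2.4.6, scipy 1.17.1 and matplotlib 3.10.9 were used.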

Additional observations from a re-analysis of the deposited data

How the results depend on the processing

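Of 83 values recomputed under alternative settings, 76 stayed within the range set for them and 7 moved. At a −log10 q of at least 3 the 20 Gy list kept 65 arm peaks, of which 58.5% overlapped a 0 Gy peak that met the same limit. At a −log10 q of at least 5 there were 50 arm peaks at 0 Gy and 37 at 20 Gy. Of the 20 Gy ones, 75.7% overlapped a 0 Gy peak that met this limit, and 29.7% lay in other annotated genes. These counts fall by construction, as faint peaks are left out. With fold enrichment in place of pileup the number of shared pairs with a ratio of at least 2 was 0, and the median ratio was 0.983 rather than 1.13. The cause was not tested. Leaving out the REXO1L array, an alternative chosen after seeing the data, gave overlaps of 39.8% at 0 Gy and 41.1% at 20 Gy. Sequence composition was not run, since no genome was used here. No paired analysis was possible because neither dose has a replicate. The median pileup of unshared peaks was 9 and 7 fragments, and the part of depth in their absence from the other list was not tested.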
